A study of Mus musculus with 9 samples.

Results

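The kinetochore and spindle checkpoint genes are a set of 34 genes, chosen by name for what their proteins do at the centromere and in the spindle checkpoint, out of 18193 genes measured on the arrays. All 34 were found as probe sets that name a single gene, and each gene was read from its brightest probe set, by the mean of the 9 arrays. The set was divided by role into 12 inner kinetochore genes, 10 outer kinetochore genes, 9 genes of the checkpoint and of the ubiquitin ligase it restrains, and 3 chromosomal passenger genes. Levels are log2 values per probe set on Affymetrix mouse expression arrays, with 1 array for each sample. A difference is the mean of the tumours minus the mean of the livers on that scale, so that 1 unit is a doubling.

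The study compared 5 hepatocellular carcinomas (HCC) with 4 normal livers. The tumours were dissected from mice titled triple knockout (TKO), whose genotype is given as RbΔ/Δ; p130Δ/Δ; p107+/-, 4 months after adenovirus with Cre recombinase (Ad-Cre) had been injected into the spleen. The livers came from wild type adult mice without tumours, so that genotype, virus and tumour state differ together between the groups and cannot be told apart. The label triple knockout goes against the listed genotype, in which 1 copy of p107 is kept. The labels leave out strain, sex, exact age, the infected cell type and whether each sample came from its own mouse, so a p-value rests on the spread among these samples, which may be in part technical.

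A kinetochore is the protein assembly that joins a chromosome to the spindle. Its inner layer sits on nucleosomes that hold the histone variant CENP-A, and its outer layer holds the NDC80 complex, which grips microtubules. Kinetochores without microtubules send a checkpoint signal through the BUB and MAD proteins that keeps CDC20 from switching on the anaphase-promoting complex (APC/C), the ubiquitin ligase that starts chromosome separation. The chromosomal passenger complex corrects wrong attachments. Adult hepatocytes seldom divide, and many genes of this machinery are transcribed mainly in dividing cells, where retinoblastoma family proteins are known to take part in holding them silent outside the cell cycle.

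Of 7 measured hepatocyte markers none rose, 2 fell and 5 did not pass, and the log2 of their summed signals was 17.20 to 17.44 in tumours against 17.41 to 17.59 in livers. Alb, Ttr and Apoa1 had means above 15 in both groups, near the highest value on any array (15.55). These 3 genes make up most of the sum, so it is a weak measure of hepatocyte content. Pck1, an enzyme of glucose synthesis, fell by 4.52 (SE 1.05) with tumours spread from 6.34 to 12.74, and Apob fell by 0.61 (SE 0.09). Of the targeted genes, Rbl2 (p130) fell by 1.99 (SE 0.30), Rb1 rose by 1.05 (SE 0.17) and Rbl1 (p107) differed by -0.18 (SE 0.26, adjusted p = 0.619). Which exons were deleted is not stated in the labels, and a probe set outside them is no check of genotype. The Actb probe sets near the 3′ end exceeded those near the 5′ end, a measure of RNA length, by a log2 ratio of 0.53 to 0.72 in tumours and 0.91 to 1.00 in livers, so that this measure moved with the groups throughout. Among markers of other cells, 4 of 7 endothelial and 3 of 6 macrophage markers fell and none rose. The log2 of their summed signals was 10.08 to 11.21 in tumours against 12.41 to 12.75 in livers for endothelium, and 10.54 to 12.90 against 12.71 to 13.63 for macrophages. Of 7 stellate cell markers 2 rose and 2 fell (summed 11.59 to 13.43 in tumours, 11.79 to 12.23 in livers), of 7 lymphocyte markers 1 fell (9.31 to 10.62 and 9.54 to 10.66), of 5 bile duct markers 1 rose and 1 fell (8.63 to 9.14 and 8.49 to 8.79) with Cftr near background in both groups, and of 4 erythroid markers none passed (9.27 to 10.25 and 9.54 to 11.82). The part of cell makeup and RNA length in the results was not tested, and in bulk tissue more dividing cells and more RNA per dividing cell cannot be told apart.

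Of the 34 genes 33 were higher and 1 was lower in the tumours at an adjusted p of 0.05, whereas 33.5% of all 18193 genes passed in either direction, 16.1% higher and 17.4% lower. Every adjusted p here comes from limma's moderated test with Benjamini-Hochberg adjustment over all genes. For the same 33 genes the lowest tumour lay above the highest liver, which held for 14.0% of all genes, and for the 1 other gene, Nsl1, all tumours lay below all livers, as for 15.9% of all genes. A rise of 2-fold or more was found for 26 of the 34 (6.52% of all genes) and of 8-fold or more for 19 (1.00% of all genes). The median difference was 3.15, against -0.08 over all genes. By role it was 2.64 for the inner kinetochore, 3.19 for the outer kinetochore, 4.16 for the checkpoint and APC/C genes and 4.47 for the passenger genes; these medians were not tested against each other. Scaling shifted all genes: the median over all genes was -0.33 with arrays centred on housekeeping genes, where 1413 genes were higher and 3306 lower, and -0.26 with arrays centred on the 75th percentile, where 2306 were higher and 8040 lower, beside 2926 and 3165 without either. Under these scalings 29 and 33 of the 34 genes still rose and 1 still fell. Of the 10 housekeeping genes measured, 4 were themselves higher and 1 lower in tumours before this scaling. Calls lost with arrays centred on them are to be read with that limit. Background was gauged by TrpnX, a control probe set for a bacterial gene, at 3.69 to 4.36.

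**Figure D1:**
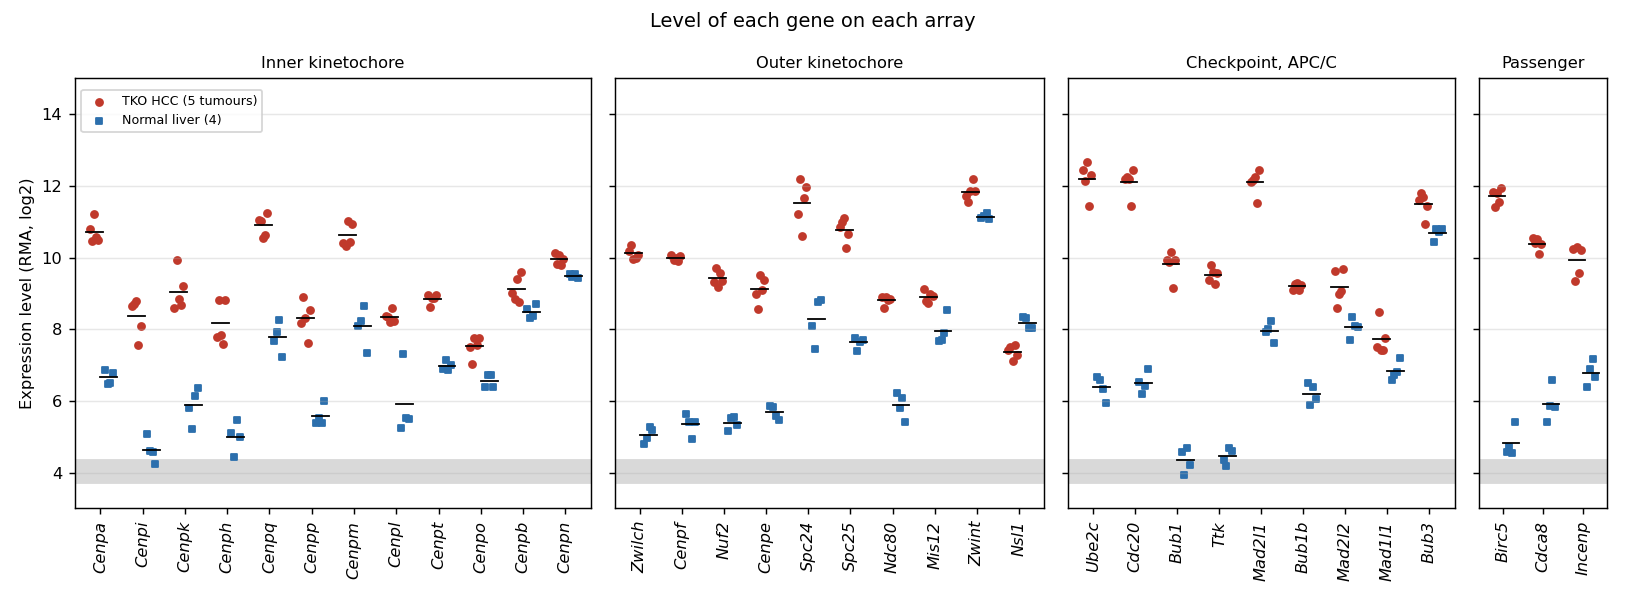
Level (RMA, log2) of the 34 genes on each array, grouped by role and ordered within a role by the difference; red circles are the 5 tumours, blue squares the 4 livers, black lines the group means and the grey band the range of the TrpnX control. Tumours and livers do not overlap for any gene, Nsl1 is the single gene that is lower in tumours, and levels of different genes are not comparable because each probe set has its own brightness.

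**Figure D2:**
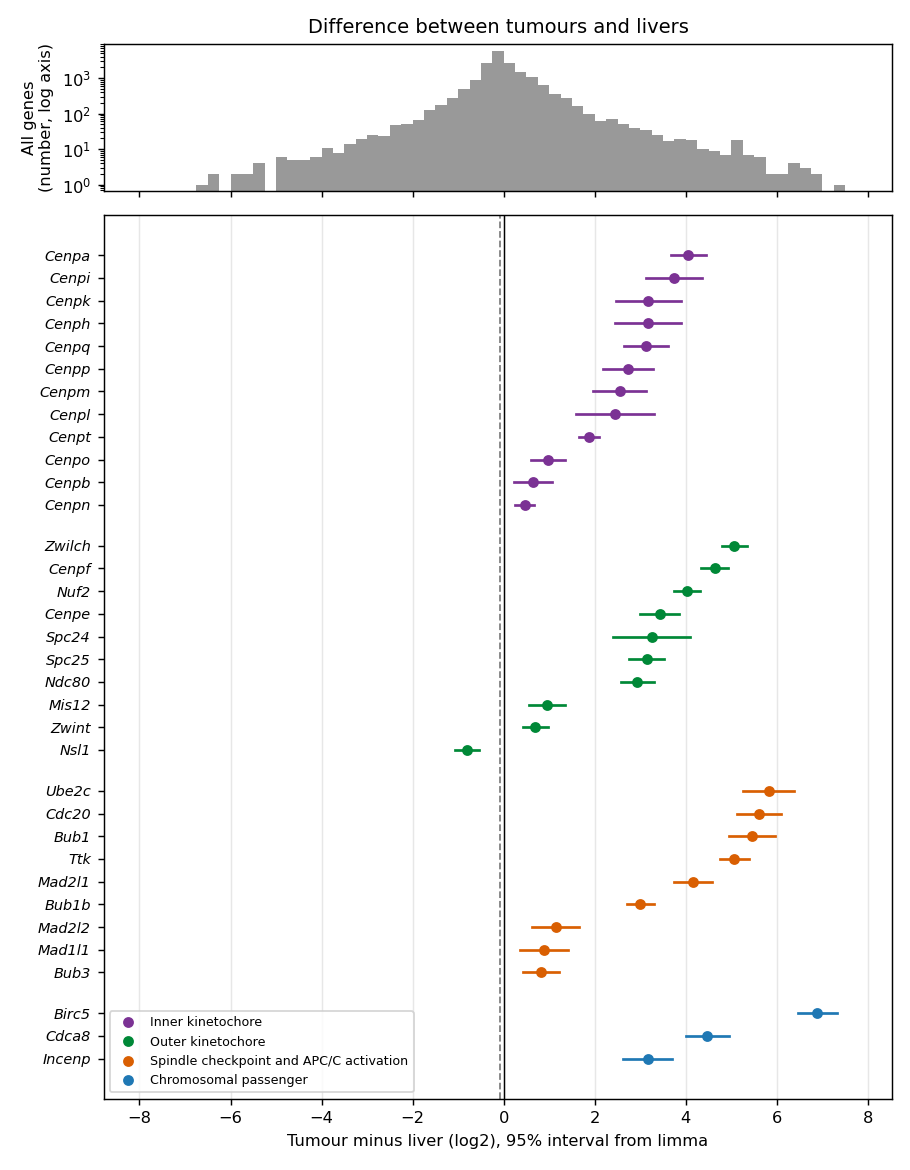
Difference between tumours and livers (log2) with its 95% interval from limma for each gene, coloured by role, under a histogram of the same difference over all 18193 genes with a log axis; the dashed line is the median of all genes, -0.08. The differences run from -0.80 (Nsl1) to 6.89 (Birc5), and each role except the passenger genes has both large and small ones.

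The stretch before the gene start was examined for 3 short motifs known from cell-cycle promoters, because these genes moved together. They are the CCAAT box, bound by NF-Y; the cell-cycle homology region (CHR), searched as TTTGAA or TTCGAA and known as a site of the MuvB complex; and an E2F site, searched as TTTCCCGC, TTTCGCGC, TTTGCCGC or TTTGGCGC. All were searched on both strands in the 250 bases before the start, and matches of different motifs or strands may overlap. RefSeq promoters (GRCm38.p6) were matched for 30 of the 34 genes, with 35 promoters in all; Spc24, Nsl1, Zwilch and Incenp had no entry. A CCAAT box stood in 22 of the 35 (62.9%) and in 33.8% of all 32851 promoters. A CHR stood in 8 (22.9%), from 7 genes, against 17.1% of all. The windows of both Bub3 promoters overlap, so the same CCAAT and CHR sites count in each. All 8 also held a CCAAT box, and both motifs together stood in 6.02% of all promoters. An E2F site stood in 3 (8.57%) against 1.86% of all. These shares are descriptions and were not tested, and a match is not shown to be a working site.

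The 4 genes with the smallest adjusted p among those holding both a CCAAT box and a CHR were Cdc20, Ube2c, Bub1b and Cenpm, and their 250 bases before the start are given 5′ to 3′ on the gene's strand, with matches to the CCAAT, CHR and E2F motifs in capitals. Cdc20 is on the minus strand at chr4:118437344-118437593 (GRCm38.p6), Ube2c on the plus strand at chr2:164769679-164769928, Bub1b on the plus strand at chr2:118597961-118598210 and Cenpm on the minus strand at chr15:82244337-82244586.
Cdc20: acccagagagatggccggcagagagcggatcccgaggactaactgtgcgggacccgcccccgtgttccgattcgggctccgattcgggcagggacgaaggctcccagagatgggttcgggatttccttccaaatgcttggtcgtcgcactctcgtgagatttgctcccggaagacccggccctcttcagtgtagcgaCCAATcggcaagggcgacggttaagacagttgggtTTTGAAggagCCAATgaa
Ube2c: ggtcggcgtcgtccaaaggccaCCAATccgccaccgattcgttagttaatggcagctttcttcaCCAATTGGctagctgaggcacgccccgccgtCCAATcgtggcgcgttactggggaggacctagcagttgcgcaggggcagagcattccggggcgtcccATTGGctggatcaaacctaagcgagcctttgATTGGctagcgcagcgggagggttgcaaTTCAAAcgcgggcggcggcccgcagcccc
Bub1b: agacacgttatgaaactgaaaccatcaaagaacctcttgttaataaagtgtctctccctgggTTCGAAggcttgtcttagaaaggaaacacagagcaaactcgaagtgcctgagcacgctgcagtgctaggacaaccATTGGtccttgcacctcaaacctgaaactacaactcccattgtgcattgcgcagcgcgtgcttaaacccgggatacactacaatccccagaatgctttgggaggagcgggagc
Cenpm: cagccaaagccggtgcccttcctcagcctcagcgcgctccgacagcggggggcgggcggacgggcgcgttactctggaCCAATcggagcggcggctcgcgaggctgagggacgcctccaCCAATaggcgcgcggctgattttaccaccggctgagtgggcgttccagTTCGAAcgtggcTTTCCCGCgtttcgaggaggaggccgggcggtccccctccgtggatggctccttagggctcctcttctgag
In Cdc20 the CHR lies between 2 CCAAT boxes, the nearer of which begins 8 bases before the start. The CHR of Ube2c lies on the other strand at 29 bases, with the nearest of its 6 CCAAT matches at 57 bases. Bub1b has its CHR at 188 and its CCAAT box at 113 bases, and in Cenpm a CHR at 83 bases is followed by an E2F site at 71 bases. The relation of motif content to size of change was not tested, and single genes went both ways. Birc5, Nuf2, Ndc80 and Mad2l1, each raised 7.65-fold or more, had none of the 3 motifs in this window. Bub3, raised 1.76-fold, had both a CCAAT box and a CHR. In the other direction, Mad1l1 (1.85-fold) and Cenpo (1.96-fold) had none, while Ttk (33.5-fold) and Bub1 (43.8-fold) had CCAAT boxes. That such letters are missing from a window says nothing about the factors that bind there.

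All 12 inner kinetochore genes rose, by 0.46 to 4.06. Cenpa encodes the histone variant that marks the centromere. The tumours read 10.80, 10.46, 11.23, 10.56 and 10.50, and the livers 6.86, 6.48, 6.49 and 6.78. All tumours stood at least 3.60 above every liver, a rise of 4.06 (SE 0.17, adjusted p = 3.81e-07), or 16.6-fold. Its other probe sets are dimmer and gave 0.45 and -0.07, with overlapping groups, and with the second brightest one the gene did not pass (adjusted p = 0.0841). Cenpt, which reaches from the centromere to the NDC80 complex, read 8.94, 8.62, 8.86, 8.86 and 8.96 in tumours against 6.89, 7.14, 6.87 and 6.996 in livers. It rose by 1.88 (SE 0.10, adjusted p = 1.29e-06), with narrow spread in both groups (SD 0.14 and 0.13).

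Cenpq, a subunit of the constitutive centromere network, was 11.04, 11.01, 10.55, 10.64 and 11.23 in tumours against 7.67, 7.92, 8.26 and 7.24 in livers, a rise of 3.12 (SE 0.22, adjusted p = 1.07e-05). Cenpt, given above, belongs to that network too. The network's further subunits among the inner kinetochore genes that rose 2-fold or more were Cenpi by 3.74 (SE 0.27), Cenpk by 3.18 (SE 0.32), Cenph by 3.16 (SE 0.32), Cenpp by 2.74 (SE 0.24), Cenpm by 2.55 (SE 0.26) and Cenpl by 2.44 (SE 0.38). Cenph, Cenpi and Cenpk belong to one subcomplex with Cenpm, and all 4 of their 95% intervals overlapped. The lowest ran from 1.97 to 3.13 (Cenpm) and the highest from 3.12 to 4.36 (Cenpi). The intervals of Cenpm and Cenpi thus met only at their ends, and equal change was not tested. The call of Cenpk was lost with its second brightest probe set (0.61), whose tumour and liver means were 5.69 and 5.08. Cenpl was read at 7.32 in liver 2 and at 5.25, 5.53 and 5.51 in the other livers, and without liver 2 its rise was 2.92.

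The remaining 3 inner kinetochore genes changed by less than 2-fold with the probe set used. Cenpb, which binds a short box in centromeric satellite DNA, was 9.02, 8.85, 9.39, 8.76 and 9.60 in tumours against 8.58, 8.31, 8.36 and 8.70 in livers. The lowest tumour was 0.06 above the highest liver, and the rise of 0.64 (SE 0.18, adjusted p = 0.025) was the least secure of the set. It did not pass with arrays centred on housekeeping genes (0.39), with its second probe set (0.43), or without tumour 3 (0.57), liver 2 (0.58) or liver 3 (0.60). Cenpo rose by 0.97 (SE 0.16, adjusted p = 0.00215) from a probe set ending in s_at, a type that can hybridise with similar transcripts. Its next brightest probe set gave -0.18 without passing and another gave 0.56 with groups apart. Cenpn, which recognises the CENP-A nucleosome, read 10.14, 9.82, 10.06, 9.78 and 9.97 in tumours against 9.53, 9.46, 9.55 and 9.44 in livers, a rise of 0.46 (SE 0.09, adjusted p = 0.00474) that was lost with arrays centred on housekeeping genes (0.21). A second Cenpn probe set, ending in s_at, averaged 8.71 in tumours and 5.56 in livers, a difference of 3.15.

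Of the 10 outer kinetochore genes 9 rose and Nsl1 fell. Zwilch belongs to the RZZ complex, which brings the checkpoint proteins and dynein to kinetochores. Its values were 10.19, 10.35, 9.97, 9.99 and 10.07 in tumours against 4.81, 4.95, 5.27 and 5.19 in livers. No tumour came within 4.70 of a liver, and the rise was 5.06 (SE 0.12, adjusted p = 2.66e-08), or 33.4-fold. Cenpf, a large protein of the fibrous outer layer, was nearly level among tumours at 10.07, 9.94, 9.99, 9.89 and 10.04 (SD 0.07) and read 5.64, 5.41, 4.94 and 5.41 in livers. It rose by 4.63 (SE 0.13, adjusted p = 3.79e-08), and its dimmer probe sets gave 2.17 and 0.48, both with the groups apart. The kinesin gene Cenpe, whose motor carries chromosomes along microtubules, rose by 3.43 (SE 0.19).

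The 4 subunits of the NDC80 complex all rose. Nuf2 was 9.33, 9.70, 9.17, 9.57 and 9.33 in tumours against 5.17, 5.52, 5.55 and 5.34 in livers, a rise of 4.03 (SE 0.13, adjusted p = 7.52e-08). The rises of Spc24 (3.25, SE 0.38), Spc25 (3.14, SE 0.17) and Ndc80 (2.94, SE 0.16) had overlapping 95% intervals, from 2.39 to 4.10, 2.76 to 3.52 and 2.58 to 3.29. Ndc80, which gives the complex its name, was 8.90, 8.60, 8.89, 8.83 and 8.84 in tumours against 6.21, 5.81, 6.08 and 5.40 in livers, well apart. Spc24 ranged widely within groups, from 10.59 in tumour 3 to 12.18 in tumour 2 and from 7.44 in liver 2 to 8.81 in liver 4. With its second, dimmer probe set Spc25 did not pass (0.27).

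Mis12 and Zwint, at the link between the NDC80 complex and the centromere, each rose by less than 2-fold. Mis12, which names the linking complex, read 9.11, 8.80, 8.72, 8.97 and 8.92 in tumours against 7.67, 7.70, 7.90 and 8.53 in livers. Liver 4 came within 0.20 of the lowest tumour, and the rise was 0.96 (SE 0.18, adjusted p = 0.00338). Zwint, which tethers the RZZ complex, was 11.71, 11.54, 11.85, 12.18 and 11.87 in tumours against 11.11, 11.16, 11.24 and 11.06 in livers. Its rise of 0.69 (SE 0.12, adjusted p = 0.00281) was lost with arrays centred on housekeeping genes (0.44) and with the mean of its 7 probe sets (0.41). The second Zwint probe set, with means of 10.04 and 9.53, gave 0.51.

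Nsl1, a subunit of the same complex as Mis12, was the gene that was lower in tumours, and its 2 probe sets opposed each other. The probe set used read 7.41, 7.50, 7.12, 7.55 and 7.28 in tumours against 8.33, 8.31, 8.03 and 8.03 in livers, a fall of 0.80 on the log2 scale (SE 0.12, adjusted p = 0.000923). The other read 7.17, 7.49, 6.70, 7.62 and 6.72 in tumours against 4.79, 4.67, 4.20 and 4.43 in livers, a rise of 2.62 (adjusted p = 3.43e-05 among second probe sets). In both probe sets the groups were apart, so the sign for Nsl1 depended on the probe set, and the mean of both gave 0.91. Of linking genes outside the 34, Dsn1 and Pmf1, subunits of the same complex, rose by 2.73 (SE 0.08) and 1.22 (SE 0.12), and Knl1, the scaffold that binds the BUB proteins, rose by 3.14 (SE 0.20).

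**Figure D3:**
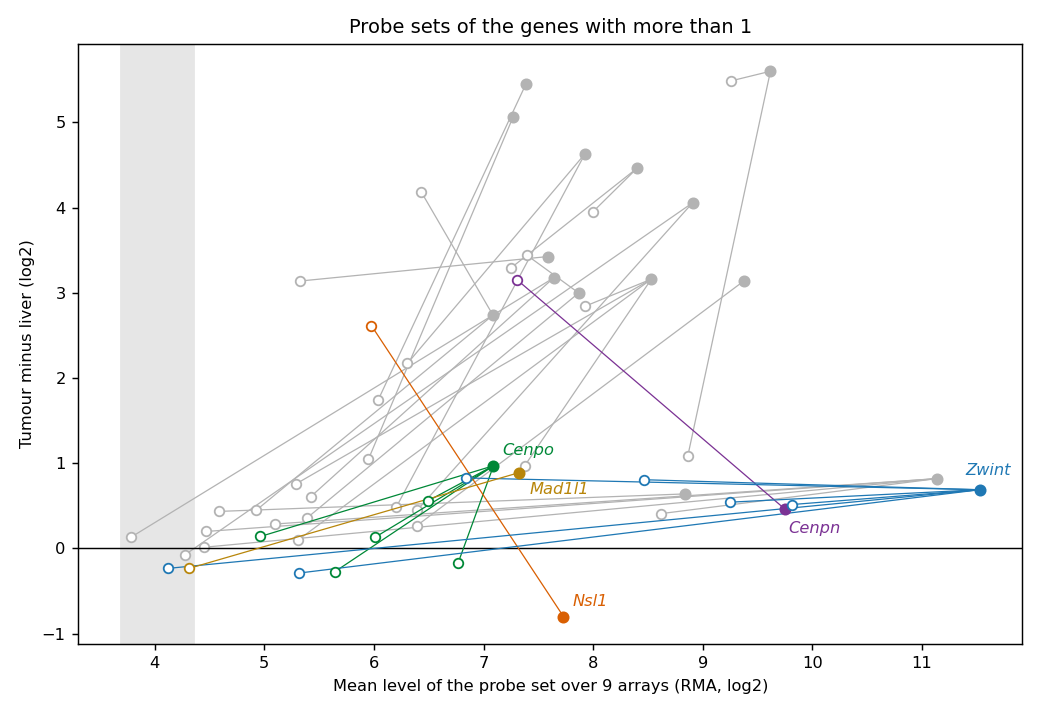
Difference between tumours and livers (log2) against mean level over 9 arrays (RMA, log2) for every probe set of the 19 genes with more than 1; filled points are the probe sets used, open points the others, lines join probe sets of 1 gene, colours mark the 5 labelled genes and the grey band is the TrpnX range. The 2 probe sets of Nsl1 lie on opposite sides of 0 (-0.80 and 2.62), and the dimmer probe set of Cenpn gives 3.15 where the one used gives 0.46.

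Across the set, 41 further probe sets were present, and 38 of them had a group mean above the TrpnX range. In 19 of the 38 all tumours lay above all livers, in 1 (of Zwint, at means of 5.19 and 5.48) all lay below, and in 18 the groups overlapped. Several genes had bright probe sets with similar differences. Among them were Cdc20 with 5.60 and 5.49 (but 1.09 with the dimmest) and Cdca8 with 4.47, 3.95 and 3.295. Bub1b had 3.00 and 3.44, but 0.35 with the dimmest, where the groups overlapped.

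All 9 checkpoint and APC/C genes rose, by 0.82 to 5.82. Ttk encodes the kinase MPS1, which starts the checkpoint signal. Its values were 9.38, 9.80, 9.58, 9.27 and 9.57 in tumours against 4.34, 4.18, 4.69 and 4.61 in livers. The livers were near the TrpnX range and the tumours at least 4.58 above them, a rise of 5.07 (SE 0.14, adjusted p = 3.3e-08). A second Ttk probe set, dimmer in tumours, gave 1.05 with the groups apart. Bub1, a kinase that marks the centromere for the passenger complex, read 9.92, 9.89, 10.17, 9.14 and 9.94 in tumours against 4.58, 3.94, 4.69 and 4.22 in livers. The rise of 5.45 (SE 0.22, adjusted p = 3.46e-07) started from a liver mean of 4.36 inside the TrpnX range, so the full size of that difference was not measurable. A second Bub1 probe set, dimmer in tumours, gave 1.74, also with the groups apart. Mad2l1 (MAD2), which binds and holds CDC20, rose by 4.16 (SE 0.19), from livers at 7.92, 8.002, 8.22 and 7.61 to tumours at 12.11, 12.17, 12.24, 11.53 and 12.44. Bub1b (BUBR1), which joins MAD2 in the inhibitor of the APC/C, rose by 3.00 (SE 0.13), with tumours at 9.10, 9.27, 9.29, 9.10 and 9.24 and livers at 6.50, 5.89, 6.38 and 6.04.

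Cdc20 and Ube2c encode the activator of the APC/C and its ubiquitin-conjugating enzyme. Cdc20 was 12.21, 12.24, 12.20, 11.44 and 12.45 in tumours against 6.53, 6.18, 6.43 and 6.89 in livers. Its rise was 5.60 (SE 0.21, adjusted p = 2.28e-07), or 48.5-fold, from a probe set ending in x_at that can cross-hybridise, and a second probe set without that ending gave 5.49. Ube2c was 12.44, 12.13, 12.68, 11.45 and 12.31 in tumours against 6.67, 6.59, 6.33 and 5.94 in livers, a rise of 5.82 (SE 0.25, adjusted p = 4.37e-07), or 56.5-fold. For both genes tumour 4 was the lowest tumour, though still at least 4.55 above every liver.

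Bub3, Mad1l1 and Mad2l2 rose least among the checkpoint genes. Bub3, which carries BUB1 and BUBR1 to the kinetochore, read 11.61, 11.80, 11.70, 10.92 and 11.44 in tumours against 10.42, 10.78, 10.72 and 10.79 in livers. Tumour 4 was 0.14 above the highest liver. The rise of 0.82 (SE 0.18, adjusted p = 0.00722), from an s_at probe set, was lost without the 3 arrays with low Xist (0.71, leaving out tumours 1 and 2 and liver 4). The other Bub3 probe sets gave 0.41, 0.29, 0.20 and 0.01, each with overlapping groups. Bub3 still passed with the second brightest (adjusted p = 0.0498) and with the mean of all 5 (0.34, adjusted p = 0.0333). Mad1l1, the scaffold that activates MAD2, was 7.52, 8.49, 7.42, 7.42 and 7.74 in tumours against 6.58, 6.73, 6.81 and 7.19 in livers. It rose by 0.89 (SE 0.23, adjusted p = 0.0171), which was lost without liver 1 (0.81), with arrays centred on housekeeping genes (0.64) and with the mean of its probe sets (0.33), while its second probe set, near background, gave -0.24. Mad2l2 (REV7), a relative of MAD2 best known from translesion DNA synthesis and the choice of DNA repair pathway, was 9.64, 8.59, 8.99, 9.07 and 9.67 in tumours against 7.71, 8.34, 8.10 and 8.06 in livers, a rise of 1.14 (SE 0.23, adjusted p = 0.00572).

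The 3 passenger genes rose by 3.16 to 6.89. Birc5 (survivin), which docks the complex on the centromere, had the largest measured difference of the 34 genes. It was 11.82, 11.41, 11.80, 11.55 and 11.94 in tumours against 4.57, 4.72, 4.56 and 5.41 in livers, so the lowest tumour was 6.002 above the highest liver. The rise was 6.89 (SE 0.19, adjusted p = 3.3e-08), or 119-fold. The livers at 4.57, 4.72 and 4.56 were near the TrpnX range, which limits how far the size of this difference can be read. Cdca8 (borealin), its partner, was 10.53, 10.41, 10.51, 10.11 and 10.37 in tumours against 5.41, 5.86, 6.59 and 5.83 in livers, a rise of 4.47 (SE 0.21, adjusted p = 7.77e-07). Incenp, the scaffold that activates the kinase Aurora B, was 10.24, 9.36, 10.29, 9.58 and 10.21 in tumours against 6.38, 6.88, 7.18 and 6.66 in livers, a rise of 3.16 (SE 0.24, adjusted p = 1.94e-05). Tumours 2 and 4 stood apart below the other 3 tumours for Incenp. The probe set used ends in x_at, and the others gave 2.84, 0.97, 0.76 and 0.10. Aurkb, the Aurora B gene, is not of the 34 and rose by 5.18 (SE 0.19).

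Pairs of genes with related roles were compared within each array, as the log2 ratio of one to the other, to test whether they changed unequally. Mad2l1 over Mad2l2 shifted by 3.02: the tumours averaged 2.91 ± 0.49 (SD, n = 5), the livers -0.11 ± 0.33 (SD, n = 4). The ratio of Cenpa to Cenpb shifted by 3.42, between 1.59 ± 0.39 (SD, n = 5) for tumours and -1.83 ± 0.08 (SD, n = 4) for livers, but by 0.94 with the mean of each gene's probe sets. For Birc5 over Incenp the shift was 3.73, for Bub1b over Bub3 it was 2.18 and for Ndc80 over Mis12 it was 1.98. In each of the 5 pairs all tumours lay above all livers. For every pair a two-sided exact permutation test over all splits into 5 and 4 arrays gave p = 0.00794, which is the smallest p possible here and is also the adjusted p (Benjamini-Hochberg, 5 pairs). The members were chosen with earlier results of these data known, and in each pair the 95% limma intervals of both genes lay apart. This p was thereby largely settled in advance and adds no separate evidence. A ratio shows unequal change and does not show that either gene stayed level.

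**Figure D4:**
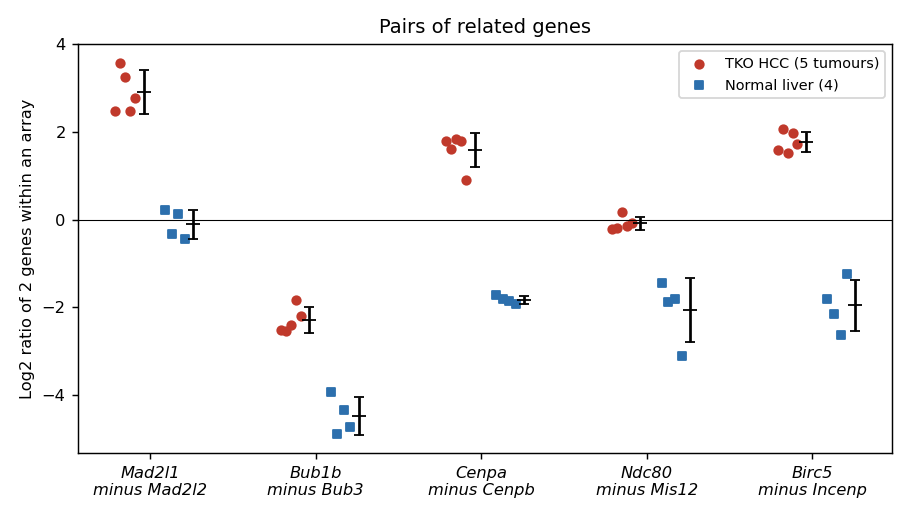
Log2 ratio of 2 genes within each array for 5 pairs of related genes; red circles are the 5 tumours, blue squares the 4 livers, and black bars the group mean with 1 SD. Tumours lie above livers in every pair, with the widest shift for Birc5 over Incenp (3.73) and the narrowest for Ndc80 over Mis12 (1.98); the level of a ratio depends on the brightness of its probe sets, and only the shift between groups is read.

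How the tumours varied among themselves is given as a description, with no test. Tumour 4 was the lowest of the 5 in 15 of the 34 genes, tumour 2 in 10, tumour 3 in 8, tumour 1 in 1 and tumour 5 in 0. Among the 9 checkpoint and APC/C genes tumour 4 was lowest in 7 (Bub1, Bub1b, Bub3, Mad2l1, Ttk, Cdc20 and Ube2c) and tied with tumour 3 for Mad1l1. Its median deviation from the tumour mean was -0.57 over these genes, -0.28 over the passenger genes, -0.22 over the inner and 0.04 over the outer kinetochore genes. Over all 18193 genes the median deviation of tumour 4 was 0.006. Cell type markers also set it apart: among the 5 tumours, tumour 4 was highest for 4 of 7 hepatocyte markers (Pck1 at 12.74), 4 of 6 macrophage, 4 of 7 lymphocyte, 2 of 7 endothelial and none of the stellate, bile duct or erythroid markers. Its summed signal was the highest of the 5 for hepatocyte (17.44), macrophage (12.90), lymphocyte (10.62) and endothelial markers (11.21). The part of these cells in its lower values was not tested. Tumour 2 was highest for Cenpk, Cenpp, Nuf2, Spc24, Zwilch, Bub3, Mad1l1 and Ttk and lowest for 10 others, among them Cenpa, Ndc80, Birc5 and Incenp. The median SD among tumours was 0.32 over the 34 genes and 0.19 over all genes, and among livers it was 0.29 and 0.16. Leaving out tumour 4 changed no call among the 34 genes.

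**Figure D5:**
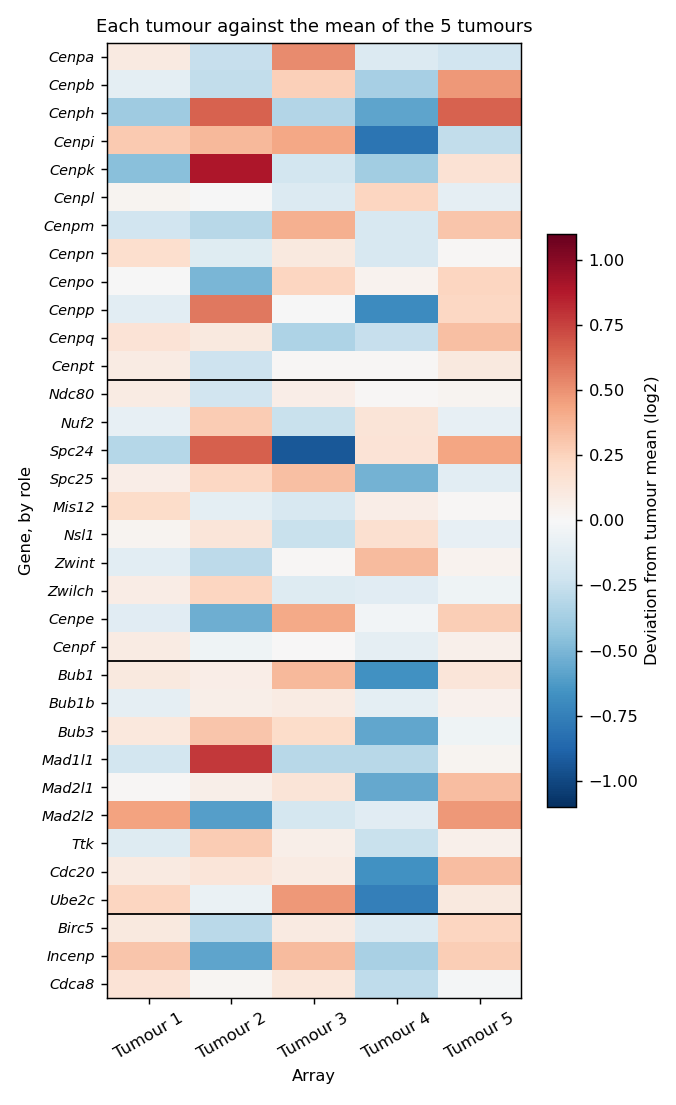
Deviation of each tumour from the mean of the 5 tumours (log2) for the 34 genes, in the order inner kinetochore, outer kinetochore, checkpoint and APC/C, and passenger, separated by lines; red is above and blue below the mean. Tumour 4 is below the mean for every checkpoint and APC/C gene (median -0.57), and tumour 2 is both the highest tumour for 8 genes and the lowest for 10.

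The rest of the pathway was read from lists chosen by role, though with earlier results of these data known. Of 25 further kinetochore and centromere genes 23 were measured; 22 rose and none fell, with a median of 2.89. Aurkb, Sgo2a and Dsn1 had the smallest adjusted p: Sgo2a, which shields cohesion at the centromere, rose by 4.13 (SE 0.15). Zw10, which shares the RZZ complex with Zwilch and is named here because it was the gene that did not pass, differed by 0.23 (SE 0.09, adjusted p = 0.0839). Kntc1, the other gene of that complex outside the 34, rose by 3.88 (SE 0.21). The 17 genes of the APC/C, its regulators and chromosome separation held 10 that rose and 1 that fell, with a median of 0.61. Espl1, the separase that cuts cohesin, rose by 4.04 (SE 0.17) and Fbxo5, an APC/C inhibitor, by 3.60 (SE 0.17). Of the 12 subunits of the APC/C itself 6 rose, 1 fell and 5 did not pass, with differences between -0.74 and 1.72. Anapc5 rose by 0.90 (SE 0.07), and Cdc26 fell by 0.74 (SE 0.11). Thus in the tumours Cdc20 and Ube2c rose by over 5 units while no listed subunit of the ligase they serve rose by 2 or more. For comparison, 11 of 16 kinesin genes rose and none fell (median 2.03), as did 14 of 17 condensin and cohesin genes (median 1.70); these lists were not tested against the 34 genes.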

How the data were processed

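The values are on the log2 scale as the authors deposited them, and the submitters' processing notes name RMA, with no version or settings stated there. RNA was amplified in 2 rounds before hybridisation, per the labels' protocols, a step that favours 3′ ends. The table holds 45101 probe sets on 9 arrays (array medians 6.22 to 6.27), and precision is limited by that number of arrays. The platform annotation gave 1 symbol for 34945 probe sets, several for 932 and none for 9160, and 64 were controls; probe sets with several symbols or none were not used. Taking the brightest probe set per gene gave 18193 genes, 5 of the 34 through an x_at or s_at probe set, which can cross-hybridise. Groups came from the sample titles. They were compared with limma 3.58.1 (lmFit, eBayes, two-sided, no covariates) in R 4.3.3, adjusted by Benjamini-Hochberg over all genes at 0.05, after the test had been tested on simulated data. Exact permutation tests and motif searches were run in Python 3.11.15 (numpy 2.4.6; pandas 2.3.3; matplotlib 3.10.9 for figures). No array duplicated another: the root mean square difference of the closest pair was 0.311. The sources used here give no scan batch. The members and lists were chosen with earlier results of these data known. By rule all 34 genes are named, with every array's value for the 3 smallest adjusted p of each role and for genes that fell or were paired; the 3 smallest adjusted p of 2 pathway lists and those that fell are given in short. Array values of Cenpn, Zwint, Ube2c and Mad1l1, and the values of Pck1, Apob, Knl1, Kntc1 and Pmf1, are printed outside that rule and were chosen after their values were seen. Alternatives were scaling, a filter on dim probe sets, other probe sets, variance models, array weights, a block on replicate number and leaving out arrays.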

Additional observations from a re-analysis of the deposited data

Results flagged for a closer look

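In 5 of 68 sets of values (34 genes in 2 groups), 1 array lay apart from the others of its group by Dixon's criterion, which chance meets in about 1 of 20 sets. Cenpl was 7.32 in liver 2, while the other livers reached 5.53. Cenpt was 8.62 and Ndc80 8.60 in tumour 2, below the other tumours at 8.86 and 8.83 or more. Bub1 was 9.14 and Cdc20 11.44 in tumour 4, below the other tumours at 9.89 and 12.20 or more.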

How the results depend on the processing

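The 33 increases and the 1 decrease kept their call and direction with arrays centred on the 75th percentile, with the filter on dim probe sets, with array weights and with the trend and robust fit. Leaving out single arrays gave 33 to 34 genes past the threshold, 32 to 33 higher and 1 lower, a median of 2.97 to 3.28, 4632 to 6361 of all genes, and 21 to 22 of the further kinetochore genes. The median of the 34 genes was 2.90 with housekeeping centring, 2.97 with 75th percentile centring, 2.45 with the mean of probe sets and 1.74 with the second brightest probe set. With that probe set, which 19 of the 34 genes had, 13 were past the threshold, all 13 higher and 0 lower; 12 further kinetochore genes rose, and 2745 of all genes passed; fewer genes were tested and dimmer probe sets read, and the part of each was not tested. The mean of probe sets gave 0 decreases. The sign turned for Nsl1 (0.91 with the mean, 2.62 with the second probe set), for Cenpo (-0.18 with the second probe set, and -0.18 without s_at and x_at probe sets) and for Mad1l1 (-0.24 with the second). Centring on the 75th percentile called 10346 of all genes; the cause was not tested. Same-numbered tumours and livers did not deviate together (r of -0.14, -0.06, 0.18 and -0.13; 2 of 8 arrays correlated best with their own number). With the replicate number as a block and without tumour 5, 3552 of all genes passed, and 31 of the 34 genes; Cenpb (0.52), Mad1l1 (0.88) and Mad2l2 (1.02) did not. Shares of promoters in the 100 bases before the start were 48.6% (CCAAT), 14.3% (CHR) and 5.71% (E2F), against 18.9%, 6.13% and 0.846% of all promoters. Liver values near the TrpnX range limit the size of the largest differences.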
